A study of Mus musculus with 6 samples.

Results

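Macrophage marker genes were examined in eWAT, the epididymal fat pad of white adipose tissue. They are 10 genes chosen by name from the count table: Adgre1 and Cd68, which mark macrophages in general; Mrc1, Cd163, Lyve1, Timd4, Folr2 and Mertk, which mark macrophages resident in tissue; and Trem2 and Gpnmb, which mark lipid-associated macrophages. All 10 were among the 54532 genes of the table, of which 29764 had any count, and all 10 passed the filter on low counts with 16003 genes in total. The RNA came from eWAT of 3 control mice and of 3 cachectic mice, all C57BL/6. By the description in the methods the mice were males of 6 to 10 weeks, cachexia was induced by subcutaneous injection of LLC cells (Lewis lung carcinoma, a mouse lung cancer line), mice that lost over 20% of their body weight were counted as cachectic, and the tissue was taken on day 21. Nothing in the labels gives the controls a tumor, an allele or an agent, and nothing says that animals were pooled. Whole tissue was sequenced, so for each gene fewer cells of a type and less RNA per cell cannot be told apart.

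Adipose tissue holds macrophages that settle there and maintain themselves, often along blood vessels, and others that are recruited from blood monocytes. Resident cells carry scavenger and endocytic receptors such as CD163, the mannose receptor MRC1 and the folate receptor FOLR2, whereas macrophages that surround dying adipocytes and take up their lipid switch on TREM2 and GPNMB. MERTK and TIMD4 bind dying cells, MERTK through the bridging proteins GAS6 and PROS1 and TIMD4 by direct contact with phosphatidylserine.

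The markers moved in both directions. Cd163 and Mertk were higher and Mrc1 and Folr2 were lower in cachectic mice, and the other 6 did not pass the test (edgeR's quasi-likelihood test with Benjamini-Hochberg adjustment over all 16003 genes, threshold 0.05). The share called over all tested genes was 17.6% (9.0% higher and 8.63% lower), and the 2 higher and 2 lower markers of 10 are to be read against these shares. The median log2 fold change of cachectic over control mice was -0.45 over the 10 markers and 0 over all tested genes, with 3 markers positive and 7 negative. The summed level of the 10 markers, in CPM (counts scaled to the normalized library size), ranged from 500 to 705 in control mice and from 480 to 724 in cachectic mice, and these ranges overlapped.

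The total count per mouse lay between 14928766 and 18855546, with all cachectic mice below all controls. Normalization factors (TMM) lay between 0.937 and 1.07, and the biological coefficient of variation was 0.264. In 1 library, cachexia replicate 3, several markers of lymphatic endothelium were at or near 0 (the values stand with Lyve1).

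The sequences just upstream of the 4 genes that passed the test are shown because the pairs moved in opposite directions. They are the 250 bases before the start of each gene in RefSeq (GRCm38.p6), 5′ to 3′ on the strand of the gene. The Mrc1 sequence lies at chr2:14229164-14229413 on the plus strand, Cd163 at chr6:124304401-124304650 on the plus strand, Folr2 at chr7:101857191-101857440 on the minus strand (the farther upstream of its 2 starts) and Mertk at chr2:128698665-128698914 on the plus strand. Capitals mark 4 short motifs, searched on both strands: GAGGAA (the core of the site of PU.1, a transcription factor of all macrophages), TGCTGA (a core part of the MAF site) and CACGTG and CATGTG (the E-boxes of MITF and TFE factors).
Mrc1: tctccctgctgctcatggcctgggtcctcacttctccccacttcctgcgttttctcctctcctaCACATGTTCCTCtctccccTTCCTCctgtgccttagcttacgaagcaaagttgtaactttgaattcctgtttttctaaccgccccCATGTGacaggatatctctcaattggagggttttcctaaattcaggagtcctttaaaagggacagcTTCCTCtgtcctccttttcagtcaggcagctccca
Cd163: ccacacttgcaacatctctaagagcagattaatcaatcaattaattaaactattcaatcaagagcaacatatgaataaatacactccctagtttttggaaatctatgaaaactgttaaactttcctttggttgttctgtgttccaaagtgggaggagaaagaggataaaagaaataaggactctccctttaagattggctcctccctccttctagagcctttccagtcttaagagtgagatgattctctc
Folr2: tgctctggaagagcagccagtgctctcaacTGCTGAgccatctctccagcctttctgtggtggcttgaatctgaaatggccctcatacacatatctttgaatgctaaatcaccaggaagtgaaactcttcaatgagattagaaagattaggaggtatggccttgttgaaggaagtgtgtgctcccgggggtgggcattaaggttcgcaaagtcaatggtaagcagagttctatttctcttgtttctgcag
Mertk: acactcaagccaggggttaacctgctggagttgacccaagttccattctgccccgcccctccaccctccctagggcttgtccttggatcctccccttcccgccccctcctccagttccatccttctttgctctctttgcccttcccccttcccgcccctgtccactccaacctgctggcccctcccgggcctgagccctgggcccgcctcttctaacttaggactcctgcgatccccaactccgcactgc

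The Mrc1 sequence held GAGGAA 3 times, each on the opposite strand, and CATGTG once on each strand, and the first of these directly adjoins a GAGGAA match without sharing a base with it. The Folr2 sequence held TGCTGA once, and the sequences of Cd163 and Mertk held none of the 4 motifs. Of the 10 markers 8 had a sequence in the table, with 9 starts because Folr2 has 2. Among them GAGGAA was present upstream of Cd68, Mrc1 and Trem2, TGCTGA upstream of Folr2 and Timd4, CATGTG upstream of Folr2, Mrc1 and Timd4, and CACGTG upstream of none. Of 32851 mouse promoters of the same length, 23.3% held GAGGAA, 16.1% TGCTGA, 6.02% CACGTG and 12.3% CATGTG. Such a match is a description of the letters, and a missing match says only that these letters are not in this window.

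Adgre1 encodes F4/80, a surface receptor found on most mouse macrophages (ENSMUSG00000004730, chromosome 17 from 57358691 to 57483527). It had 41.0, 46.9 and 56.2 CPM in controls 1, 2 and 3, and 33.4, 54.3 and 22 CPM in cachectic mice 1, 2 and 3. The groups overlapped, because cachexia replicate 2 was above 2 of the controls. The mean was 48.0 ± 7.64 CPM (SD, n = 3) in control and 36.5 ± 16.4 CPM (SD, n = 3) in cachectic mice, and the log2 fold change was -0.39 (standard error, SE, 0.30, BH-adjusted p = 0.398 in edgeR). The value moved with single mice, to -0.13 without cachexia replicate 3 and to -0.79 without cachexia replicate 2, and neither passed the threshold.

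Cd68, which encodes a glycoprotein of the endosomes and lysosomes of phagocytes (ENSMUSG00000018774, chromosome 11 from 69664213 to 69666153), had 48.0, 38.2 and 58.5 CPM in the controls and 33.4, 38.4 and 30.7 CPM in the cachectic mice. Only cachexia replicate 2 reached the lowest control. The log2 fold change was -0.50 (SE 0.18, BH-adjusted p = 0.0931 in edgeR). Neither general marker thus passed the test, and their summed level was 85.2 to 115 CPM in control and 52.6 to 92.7 CPM in cachectic mice.

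Mrc1, the gene of the mannose receptor CD206 (ENSMUSG00000026712, chromosome 2 from 14229392 to 14332057), was lower in cachexia. It had 180, 263 and 260 CPM in controls 1, 2 and 3, and 148, 120 and 109 CPM in cachectic mice 1, 2 and 3. Every cachectic mouse was below every control. The mean fell from 234 ± 46.9 CPM (SD, n = 3) to 126 ± 20.3 CPM (SD, n = 3), a fold of 0.536 and a log2 fold change of -0.90 (SE 0.20, BH-adjusted p = 0.0210 in edgeR). The adjusted p in edgeR rose above the threshold in 4 of the 6 fits that left out 1 mouse, to 0.0770 without control replicate 2, 0.0887 without control replicate 3, 0.0583 without cachexia replicate 2 and 0.0545 without cachexia replicate 3.

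Cd163, the gene of the scavenger receptor for complexes of hemoglobin and haptoglobin (ENSMUSG00000008845, chromosome 6 from 124304656 to 124330527), moved the other way. It had 63.8, 93.9 and 90.7 CPM in the controls and 157, 199 and 119 CPM in cachectic mice 1, 2 and 3. All 3 cachectic mice were above all 3 controls, although they also differed more among themselves. The mean rose from 82.8 ± 16.6 CPM (SD, n = 3) to 158 ± 40.0 CPM (SD, n = 3), a fold of 1.91 and a log2 fold change of 0.93 (SE 0.23, BH-adjusted p = 0.0293 in edgeR). The adjusted p in edgeR was 0.0665, 0.0670 and 0.0879 without control replicates 1, 2 and 3, and 0.0696 and 0.0684 without cachexia replicates 1 and 2, so the call was kept only without cachexia replicate 3 (0.0211).

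Because Mrc1 and Cd163 are both used as markers of resident cells, their ratio within each mouse was also computed, for a pair picked after the values had been seen and therefore without a test. The CPM of Cd163 divided by that of Mrc1 was 0.354, 0.357 and 0.349 in controls 1, 2 and 3. In cachexia replicates 1, 2 and 3 it was 1.06, 1.66 and 1.09. The controls lay close together at a ratio well below 1 although the level of each gene varied between them, and each cachectic mouse had a higher CPM of Cd163 than of Mrc1.

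**Figure D1:**
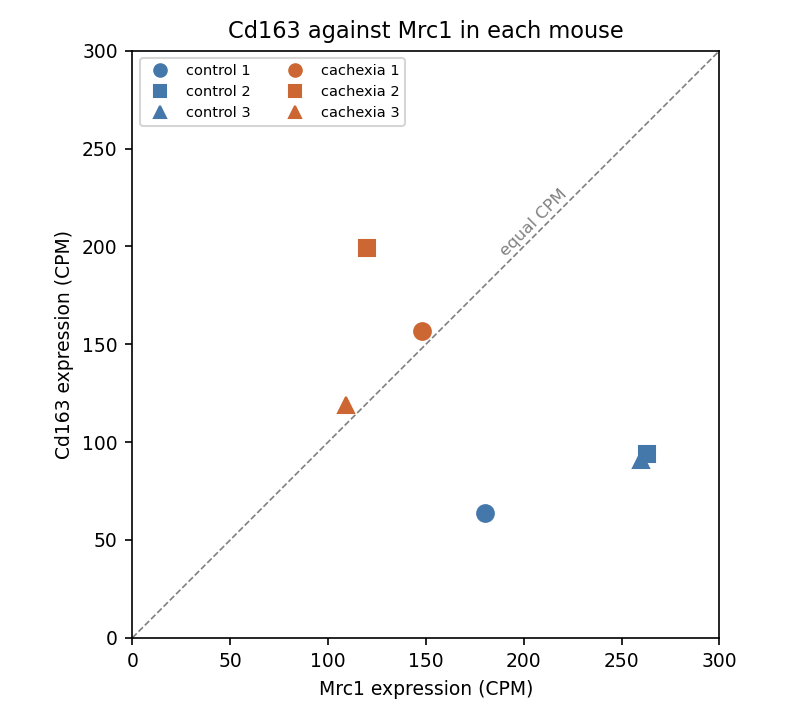
Expression of Cd163 (vertical axis, CPM) against Mrc1 (horizontal axis, CPM), 1 point per mouse, with the line of equal CPM dashed. The 3 control mice lie below the line at ratios of 0.349 to 0.357, and the 3 cachectic mice lie above it at ratios of 1.06 to 1.66.

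Folr2 encodes folate receptor beta, a marker of perivascular resident macrophages (ENSMUSG00000032725, chromosome 7 from 101839988 to 101857194). Its counts were 250, 266 and 250 in controls 1, 2 and 3, and 91, 77 and 24 in cachectic mice 1, 2 and 3, which is 12.5, 15.2 and 14.2 CPM against 5.31, 4.73 and 1.57 CPM. The groups were far apart, with cachexia replicate 3 lowest. The mean fell from 14.0 ± 1.36 CPM (SD, n = 3) to 3.87 ± 2.01 CPM (SD, n = 3), a fold of 0.278 and a log2 fold change of -1.85 (SE 0.40, BH-adjusted p = 0.0207 in edgeR), the largest change of the 10. The adjusted p in edgeR was 0.0681 without control replicate 2 and 0.0741 without control replicate 3, and under the threshold in the other 4 fits that left out 1 mouse. An antisense gene, Gm10602, shares 975 exonic bases with Folr2 and the counting is not stated to use strand, so reads of the pair cannot be told apart there. Gm10602 itself had 71, 46 and 55 counts in control and 39, 39 and 22 counts in cachectic mice.

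Timd4, the phosphatidylserine receptor TIM-4 of long-lived resident macrophages (ENSMUSG00000055546, chromosome 11 from 46810800 to 46844332), was the marker with the lowest level per kilobase. Its counts were 74, 162 and 100 in controls 1, 2 and 3, and 51, 47 and 23 in cachectic mice 1, 2 and 3, or 3.71, 9.28 and 5.67 CPM against 2.97, 2.89 and 1.51 CPM. The groups did not overlap, but control replicate 1 was close to the cachectic mice. The log2 fold change was -1.33 (SE 0.43), and it did not pass the test (BH-adjusted p = 0.0689 in edgeR). Of 17 other settings 2 brought the adjusted p under the threshold, DESeq2 with 0.0184 and edgeR without control replicate 1 with 0.0399.

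Mertk encodes the receptor tyrosine kinase through which macrophages engulf apoptotic cells (ENSMUSG00000014361, chromosome 2 from 128698956 to 128802894). It had 51.1, 49.3 and 62.4 CPM in the controls and 79.3, 130 and 83.3 CPM in cachectic mice 1, 2 and 3. All cachectic mice were higher than all controls, and cachexia replicate 2 was highest, as it was for Cd163. Among the cachectic mice replicate 2 was also highest for Adgre1, Cd68 and Gpnmb, but not for Mrc1, Lyve1, Timd4, Folr2 and Trem2. The mean rose from 54.3 ± 7.08 CPM (SD, n = 3) to 97.7 ± 28.4 CPM (SD, n = 3), a fold of 1.80 and a log2 fold change of 0.85 (SE 0.21, BH-adjusted p = 0.0320 in edgeR). The adjusted p in edgeR was 0.0781, 0.109 and 0.0756 without control replicates 1, 2 and 3, and it was under the threshold when any 1 of the cachectic mice was left out.

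Lyve1 encodes a hyaluronan receptor that marks both a perivascular macrophage subset and lymphatic endothelium (ENSMUSG00000030787, chromosome 7 from 110850607 to 110863239). It had 48.5, 100 and 52.4 CPM in controls 1, 2 and 3, and 70.1, 60.8 and 48.1 CPM in cachectic mice 1, 2 and 3. Control replicate 2 was highest of the 6, and 2 of the cachectic mice were above the other 2 controls. The log2 fold change was -0.17 (SE 0.29, BH-adjusted p = 0.723 in edgeR), and it turned to 0.24 without control replicate 2. Lymphatic endothelial genes varied between libraries in another pattern: Mmrn1, which encodes a protein of lymphatic vessels, had 85.5, 38 and 32.6 CPM in the controls and 41.8, 38 and 0.393 CPM in the cachectic mice, and Reln, named after its values were seen, had 49.9, 25.2 and 21.5 against 28.8, 35.4 and 0.197 CPM. Prox1, of the same list, had 11.9, 5.33 and 4.42 CPM in the controls and 4.9, 3.62 and 0.524 CPM in the cachectic mice. Flt4, the gene of the receptor VEGFR3, had 22.6 CPM in cachexia replicate 3 and 29.2 to 54.8 CPM in the other 5 mice. Pdpn, the podoplanin gene, had 29.2 CPM in cachexia replicate 3, above the other 2 cachectic mice. Of the 7 lymphatic genes none passed the test in edgeR, none had an unadjusted p under 0.05, and DESeq2 and limma-voom called none, but without cachexia replicate 3 edgeR called 1 lower. Their median log2 fold change was -0.61, and their summed level was 127 to 233 CPM in control and 52.9 to 156 CPM in cachectic mice. Prox1, Pdpn, Ccl21a and Nts were also named after their values were seen. In cachexia replicate 3 the chemokine gene Ccl21a and Nts were at 0 counts. Lyve1 was present at 48.1 CPM in that same library, and the log2 fold change of Lyve1 without it was -0.03. The part of lymphatic vessels in the Lyve1 level was not tested.

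Trem2, a lipid-sensing receptor of lipid-associated macrophages (ENSMUSG00000023992, chromosome 17 from 48346401 to 48354147), had 15.4, 12.7 and 18.5 CPM in the controls and 7.29, 10.4 and 12.2 CPM in the cachectic mice. The highest cachectic mouse was just below the lowest control. The log2 fold change was -0.64 (SE 0.24), and it did not pass the test (BH-adjusted p = 0.104 in edgeR, 0.0744 to 0.306 over 17 other settings). Gpnmb encodes a transmembrane glycoprotein of lipid-laden phagocytes (ENSMUSG00000029816, chromosome 6 from 49036546 to 49070929) and had the highest coefficient of variation of the 10 within the controls (69.7%). It had 35.4, 23.3 and 87.1 CPM in control and 38.5, 104 and 53.4 CPM in cachectic mice. Its log2 fold change of 0.43 (SE 0.52, BH-adjusted p = 0.607 in edgeR) was smaller than its error, and it was -0.08 without cachexia replicate 2 and 1.15 without control replicate 3. The lipid-associated markers thus had values of opposite sign, and neither passed the test.

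**Figure D2:**
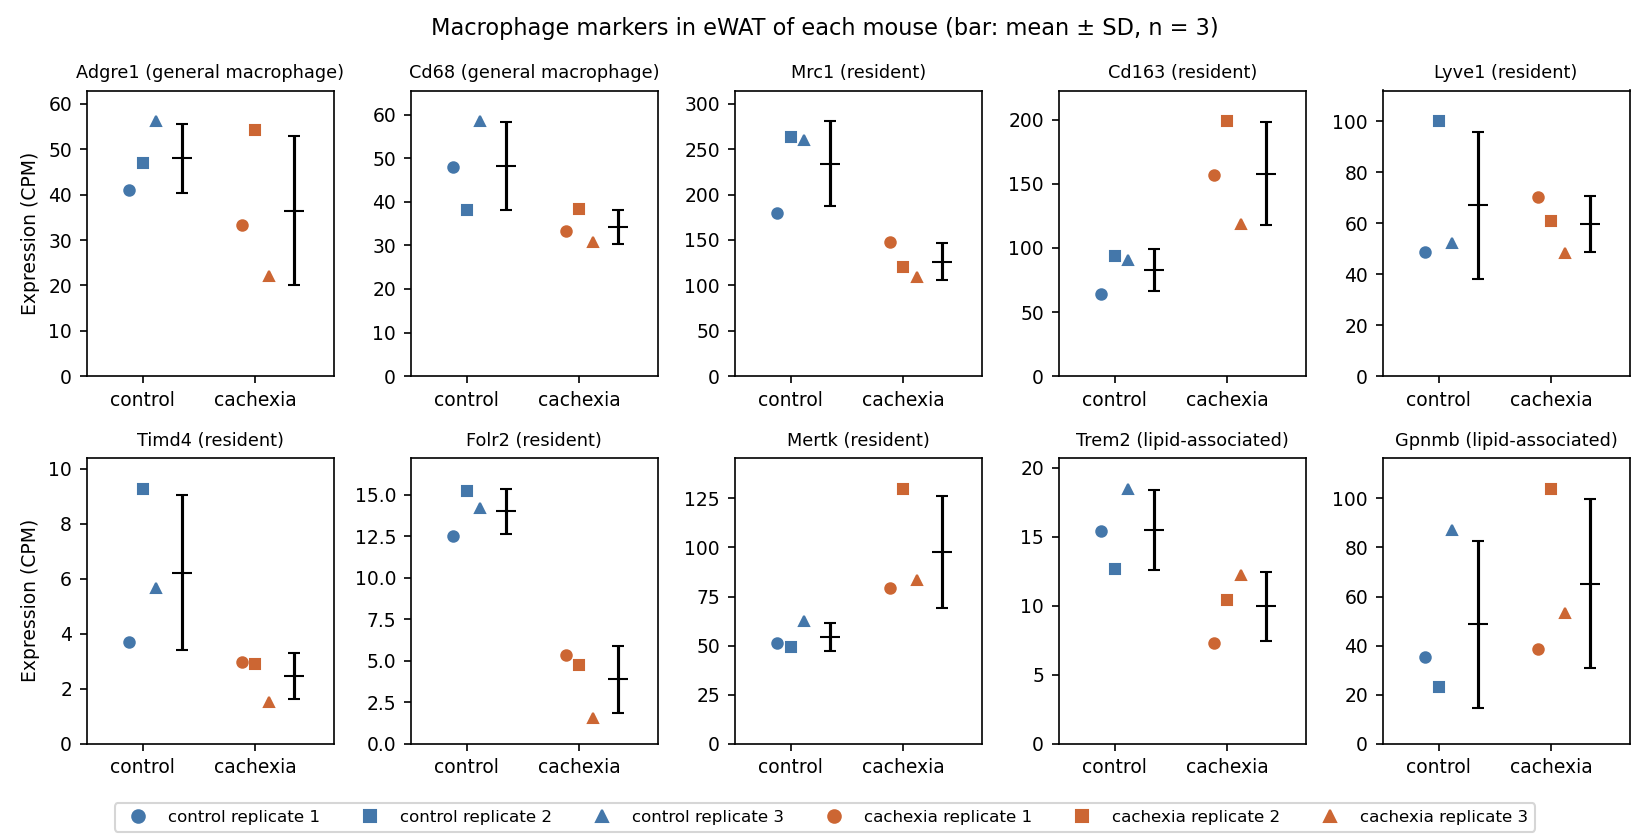
Expression (vertical axis, CPM, starting at 0) of the 10 markers in each mouse, 1 point per mouse with its replicate number given by the symbol, and bars with the mean ± SD of 3 mice. Control and cachectic mice are fully apart for Mrc1, Folr2, Timd4 and Trem2 (cachectic lower) and for Cd163 and Mertk (cachectic higher), and they overlap for Adgre1, Cd68, Lyve1 and Gpnmb.

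In 6 of the 10 markers the 2 groups did not overlap, 2 with cachectic mice higher and 4 with them lower, against 40.5% of all tested genes (20.4% higher and 20.1% lower). For each of the 6 a two-sided exact permutation test on log2 CPM gave p = 0.1, the smallest that 3 against 3 mice allow. Groups that do not overlap always give this value, so the test adds nothing to the count. By role, the 6 resident markers had 2 higher and 2 lower genes and a median log2 fold change of -0.53, the 2 general markers had none called and a median of -0.45, and the 2 lipid-associated markers had none called and a median of -0.11. The resident markers were thus spread on both sides of the general ones, from -1.85 for Folr2 to 0.93 for Cd163.

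**Figure D3:**
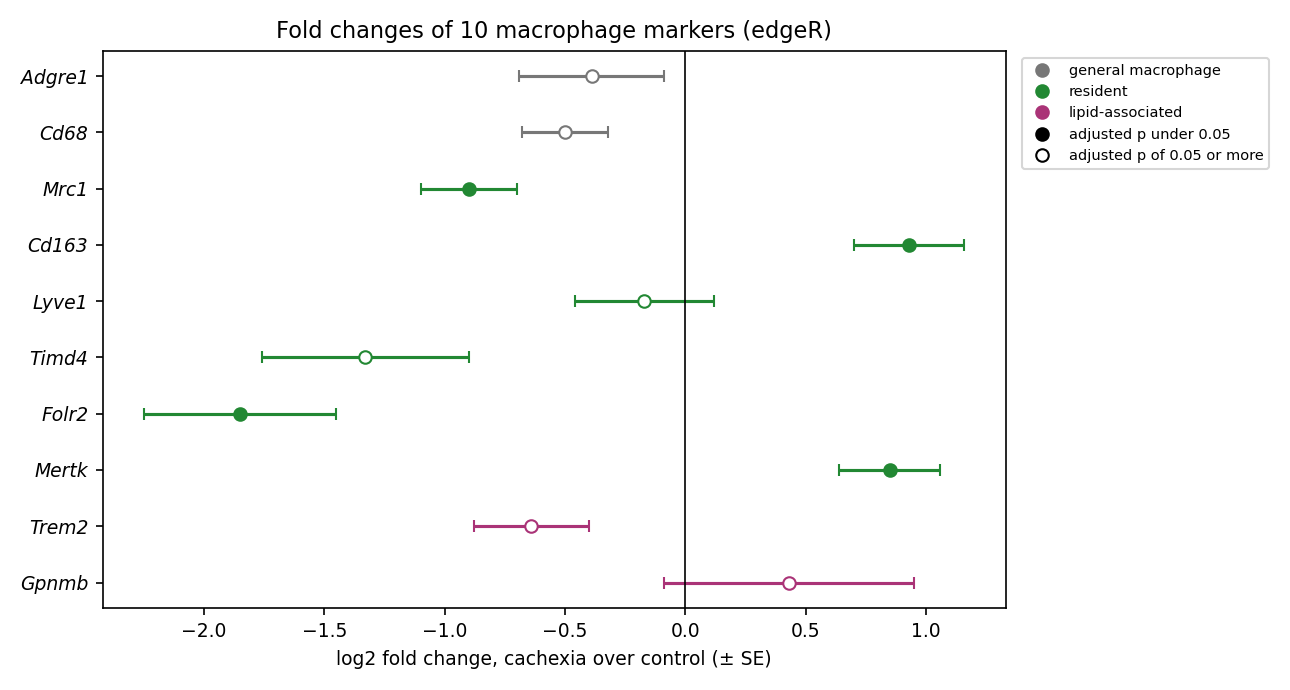
Log2 fold change of cachectic over control mice (horizontal axis, ± standard error from edgeR, 3 mice per group) for the 10 markers, colored by role, with filled points for an adjusted p under 0.05. Filled points are Cd163 (0.93) and Mertk (0.85) to the right and Mrc1 (-0.90) and Folr2 (-1.85) to the left of 0.

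To compare the markers with each other, each was also expressed relative to Adgre1 in the same mouse, as a log2 ratio of CPM with a pseudocount of 0.5. For Cd163 this ratio was 0.63, 0.99 and 0.69 in controls 1, 2 and 3, and 2.22, 1.86 and 2.41 in cachectic mice 1, 2 and 3, a difference of means of 1.39. The corresponding ratio for Mertk was 0.31, 0.07 and 0.15 against 1.24, 1.26 and 1.90, a difference of 1.29. These mice were separated by group for both genes, and the Mertk ratios of the controls lay within a narrow band near 0.

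The Folr2 ratio was -1.67, -1.59 and -1.95 in the controls and -2.54, -3.39 and -3.44 in the cachectic mice, a difference of -1.39. Every cachectic mouse thus had less Folr2 per Adgre1 than every control. For Mrc1 the difference was -0.41 and the groups overlapped, since cachexia replicates 1 and 3 had ratios of 2.14 and 2.29, within the control range of 2.12 to 2.47. The same was seen for Timd4 (-0.67), Lyve1 (0.37), Trem2 (-0.16), Gpnmb (0.99) and Cd68 (0.00), whose groups overlapped. Exact permutation tests gave p = 0.1 for Cd163, Mertk and Folr2, the smallest possible, and 0.3 after Benjamini-Hochberg adjustment over the 9 ratios, so no ratio could pass 0.05 in this design.

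**Figure D4:**
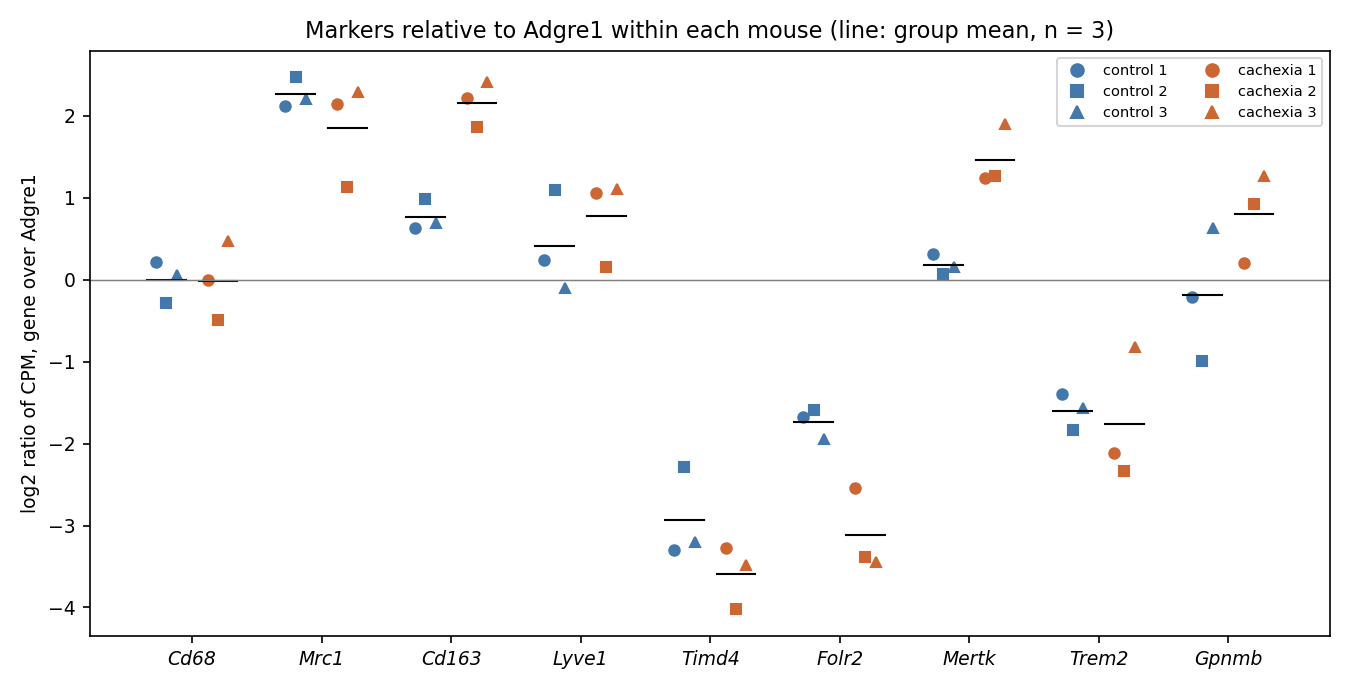
Log2 ratio of the CPM of each marker to that of Adgre1 within the same mouse (vertical axis), 1 point per mouse and a line at the mean of 3 mice per group. The groups are apart for Cd163 (means 0.77 and 2.16), Mertk (0.18 and 1.46) and Folr2 (-1.74 and -3.12) and overlap for the other 6.

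The choice of the reference mattered for some markers. Relative to Cd68 the differences were 1.39 for Cd163, 1.29 for Mertk and -1.38 for Folr2, again with groups apart. Relative to the sum of C1qa, C1qb and C1qc, which encode the complement protein C1q that macrophages make, they were 0.80 for Cd163, 0.69 for Mertk and -1.98 for Folr2. Against C1q the groups were also apart for Mrc1 (-1.01), Timd4 (-1.26), Adgre1 (-0.60) and Cd68 (-0.60), all lower in cachectic mice. The C1q genes themselves had log2 fold changes of 0.37 (C1qa), 0.04 (C1qb) and 0.00 (C1qc), and none of the 3 passed the test in edgeR.

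Levels of different markers were compared per kilobase of the deposited gene length (RPKM, normalized as for CPM). In control mice the order of mean RPKM was Cd68 (38.4), Mrc1 (36.8), Lyve1 (23.0), Cd163 (15.2), Adgre1 (14.8), Mertk (12.5), Folr2 (9.05), Gpnmb (7.47), Trem2 (3.14) and Timd4 (2.86). With the deposited lengths, only Mertk and Folr2 were neighbors whose values in the 3 mice did not overlap. In cachectic mice the order was Cd163 (28.9), Cd68 (27.2), Mertk (22.5), Lyve1 (20.4), Mrc1 (19.7), Adgre1 (11.3), Gpnmb (10), Folr2 (2.50), Trem2 (2.01) and Timd4 (1.13). Here the neighbors Mrc1 and Adgre1, Gpnmb and Folr2, and Trem2 and Timd4 did not overlap. Cd163 moved from rank 4 to rank 1 and Mertk from rank 6 to rank 3, whereas Mrc1 moved from rank 2 to rank 5.

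The ranks depend on the gene length used. For Trem2 the deposited length of 4946 bases is 4.55 times that of its longest protein-coding transcript in GENCODE M21 (1088 bases). With the transcript's length Trem2 had 14.3 RPKM in control and 9.14 RPKM in cachectic mice and ranked 6 and 8. Gpnmb, whose deposited length is 1.76 times that of its longest coding transcript, had 13.1 and 17.6 RPKM in this way. With the transcript lengths Mrc1 ranked 1 in control and 3 in cachectic mice, Mertk 8 and 4 and Folr2 9 and 9, while Cd163 again ranked 4 and 1. Mertk and Folr2 then had means of 12.6 and 11.6 RPKM in control mice, and their control values overlapped. These lengths were chosen after the data were seen. The fold change of a gene does not depend on its length.

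Other genes of these macrophage types were taken from lists in which the 10 markers do not appear. The calls in each list are to be read against those over all tested genes, 9.0% higher and 8.63% lower. Of 20 resident and perivascular macrophage genes, 3 were lower and none higher in edgeR, with a median log2 fold change of -0.64. Over 15 other settings 1 to 5 genes were called lower (1 without control replicate 2 or 3, and 5 with DESeq2) and 0 to 1 higher (1 with DESeq2 or without cachexia replicate 2 or 3). In the upward direction 2 genes had an unadjusted p under 0.05 in edgeR, and limma-voom called none. Fcrls, an Fc receptor-like gene, had 37.3, 53.9 and 45.1 CPM in the controls and 14.8, 11 and 5.51 CPM in the cachectic mice, a log2 fold change of -2.12 (SE 0.33, BH-adjusted p = 0.00695 in edgeR). Cbr2, a carbonyl reductase gene, and Pf4, which encodes the chemokine platelet factor 4, were also lower, with log2 fold changes of -0.91 and -0.76. Among the genes with the highest CPM that did not pass the test, Selenop, which encodes the selenium carrier selenoprotein P, had a log2 fold change of 0.52 (SE 0.28), and it shares 439 exonic bases with Ccdc152 on the other strand. Retnla, a gene of alternatively activated macrophages, had 342, 545 and 479 CPM in control mice and 229, 9.33 and 93.3 CPM in cachectic mice, a log2 fold change of -2.04 (SE 0.86) with an adjusted p = 0.139 in edgeR. The Retnla groups did not overlap, but the cachectic mice differed widely.

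The median log2 fold change of 20 lipid-associated macrophage genes was -0.20. Of these genes 2 were lower and none higher, against 8.63% and 9.0% of all tested genes. Neither was called without control replicate 1 or 3 or without cachexia replicate 1 or 3, and 1 was called without control replicate 2. The lower genes were Itgax, the gene of the integrin CD11c, which fell from 15.8 ± 6.31 CPM (SD, n = 3) to 4.36 ± 2.44 CPM (SD, n = 3), and Ctsk, the gene of the protease cathepsin K, with a log2 fold change of -1.21. Apoe, the gene of apolipoprotein E, which many cell types make, had 4070, 3160 and 3840 CPM in control and 7530, 9990 and 3800 CPM in cachectic mice, and with cachexia replicate 3 inside the control range it did not pass the test (log2 fold change 0.94, SE 0.37, BH-adjusted p = 0.113 in edgeR). Ctsb, the gene of cathepsin B, had a log2 fold change of -0.26 (SE 0.20), and it shares 774 exonic bases with Fdft1 on the other strand. As with Trem2 and Gpnmb, no gene of the list was called higher in edgeR, where 2 had an unadjusted p under 0.05 in that direction. DESeq2 called 1 higher and limma-voom none, and edgeR called 1 without control replicate 1 and 1 without cachexia replicate 3.

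Of 17 pan-macrophage and phagocyte genes, 1 was higher and 2 were lower, with a median of -0.24. Cd14, the lipopolysaccharide co-receptor, rose from 40.0 ± 5.93 CPM (SD, n = 3) to 84.8 ± 35.7 CPM (SD, n = 3). Laptm5, a lysosomal protein gene of blood-derived cells, and Cx3cr1, the fractalkine receptor gene, were lower with log2 fold changes of -0.67 and -2.64. Cx3cr1 had 206, 67 and 56 counts in the controls and 7, 30 and 8 in the cachectic mice. None of the 17 genes was called higher when any 1 of the controls was left out and 2 without cachexia replicate 3. Over 15 other settings 0 (without control replicate 3) to 3 were called lower. The lower genes numbered 1 without control replicate 1 or 2 or cachexia replicate 1 or 3. Csf1r, the receptor of macrophage colony-stimulating factor, and Lyz2, a lysozyme gene, which had the highest CPM among the others, did not pass the test, with log2 fold changes of -0.34 (SE 0.32) and -0.17 (SE 0.21). Csf1r was at 86.8 CPM in cachexia replicate 3 and at 195 to 232 CPM in the other 5 mice, and Adgre1 was also lowest in that mouse. Csf1r shares 873 exonic bases with Hmgxb3 on the other strand.

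Genes of efferocytosis (the engulfment of dying cells), among them those of the MERTK ligands, were examined in a list of 17. Of these 15 were tested, 2 were higher and 1 was lower, with a median log2 fold change of 0.10. The higher genes numbered 1 to 3 over 15 other settings, with 1 when any 1 of the controls or cachexia replicate 2 was left out. With at least 10 counts in every sample, which removes low genes, 1 was higher and none lower. Pros1, the gene of protein S, a ligand of MERTK, had 97.6, 104 and 101 CPM in control mice and 131, 157 and 173 CPM in cachectic mice, a log2 fold change of 0.61 (SE 0.14, BH-adjusted p = 0.0256 in edgeR). Gas6, the gene of its other ligand, had 521, 456 and 501 CPM against 340, 309 and 454 CPM, with no overlap but without passing the test (log2 fold change -0.42, SE 0.19, BH-adjusted p = 0.155 in edgeR). The receptor and 1 of its ligands were thus higher, and the other ligand was not. Stab2, a scavenger receptor gene also made by sinusoidal and lymphatic endothelium, rose from 0.515 ± 0.596 CPM (SD, n = 3) to 13.5 ± 7.16 CPM (SD, n = 3), and Megf10, an engulfment receptor gene, fell from 3.72 ± 0.413 CPM (SD, n = 3) to 0.657 ± 0.251 CPM (SD, n = 3). Lrp1, a large endocytic receptor gene, had a log2 fold change of 0.83 (SE 0.28, BH-adjusted p = 0.0824 in edgeR).

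Of 13 macrophage growth factor, chemokine and receptor genes, 11 were tested, 3 were higher and 3 lower, with a median of -0.17 (1 lower without control replicate 2 or cachexia replicate 1). Il4ra, the receptor chain of interleukin-4 and interleukin-13, had a log2 fold change of 1.82. Csf2rb, the shared chain of the GM-CSF receptor family, and its paralog Csf2rb2, between which reads may be split, had 1.95 and 2.35. Ccl2, the gene of the main monocyte chemoattractant, fell from 20.6 ± 8.07 CPM (SD, n = 3) to 5.94 ± 1.06 CPM (SD, n = 3). Csf1, the gene of macrophage colony-stimulating factor, named after its values were seen, was lower as well, from 88.5 ± 17.9 CPM (SD, n = 3) to 45.1 ± 13.7 CPM (SD, n = 3), a log2 fold change of -0.97 (SE 0.25, BH-adjusted p = 0.0354 in edgeR). Il34, the other ligand gene of the CSF1 receptor, and Csf2ra, the specific chain of the GM-CSF receptor, had log2 fold changes of -0.44 (SE 0.21) and -0.17 (SE 0.32) and did not pass the test. Of 12 tested monocyte genes 1 was higher and 2 were lower, with a median of 0.16 (1 lower without control replicate 2 or 3, and none higher without control replicate 1 or 3 or cachexia replicate 3). Ccr2, the CCL2 receptor of classical monocytes, had 59.4, 80.8 and 69.6 CPM in control and 24.6, 15.7 and 23.5 CPM in cachectic mice, a log2 fold change of -1.72 (SE 0.20, BH-adjusted p = 0.00302 in edgeR). Ligand and receptor of this pair were both lower in every cachectic mouse than in every control. Vcan, a proteoglycan gene of monocytes and stroma, had a log2 fold change of -1.01, whereas Chil3, a chitinase-like gene of activated monocytes, macrophages and neutrophils, had 3.28. Hp, the haptoglobin gene, and Ace, the gene of angiotensin-converting enzyme, did not pass the test, with 0.43 (SE 0.55) and -0.63 (SE 0.33). Their control means were 3790 and 221 CPM, and the part of cells other than monocytes in these levels was not tested.

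Markers of other cells also moved with the groups. Their counts, too, stand beside 9.0% called higher and 8.63% called lower over all tested genes. Of 11 tested neutrophil genes 9 were higher (3 to 10 over 15 other settings, with 3 where at least 10 counts were asked of every sample, and 6 without control replicate 3). The median log2 fold change was 4.95 and the summed level of the list was 42.6 to 180 CPM in control and 308 to 924 CPM in cachectic mice. The alarmin genes S100a8 and S100a9 had log2 fold changes of 5.25 and 6.78, Retnlg 4.95 and the chemokine receptor gene Cxcr2 3.83, while Lcn2, the lipocalin-2 gene, and Camp, an antimicrobial peptide gene, did not pass the test, with 0.30 (SE 1.08) and 0.96 (SE 0.99). Lcn2 had 148, 8.20 and 9.80 CPM in the controls and 18.3, 81.6 and 105 CPM in the cachectic mice. Ly6g, which was not tested, had 0 counts in all controls and 8, 10 and 6 counts in the cachectic mice. Of 7 tested erythroid genes all 7 were higher (5 to 8 over 15 other settings), with a median of 2.57 and summed levels of 254 to 452 against 1340 to 2860 CPM. Among them Hba-a1 and Hbb-bs, globin genes with near-identical copies that can share reads, had 2.48 and 2.95, the heme synthesis gene Alas2, which shares 311 exonic bases with Apex2 on the other strand, 2.50 and the anion exchanger gene Slc4a1 4.08. Slc4a1 had only 5, 4 and 2 counts in the controls and 84, 35 and 52 in the cachectic mice.

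Of 9 blood endothelial genes 4 were higher and none lower, with a median of 0.74 and summed levels of 1520 to 1680 against 2280 to 3600 CPM. The higher genes numbered 1 without control replicate 2 or 3, 2 without cachexia replicate 1 or 2, and 7 without cachexia replicate 3 or with DESeq2. Of the adhesion genes, Pecam1 was 2.23-fold higher, and Cdh5 and Esam had log2 fold changes of 0.74 and 1.55. Egfl7, which shares 64 exonic bases with the highly counted Agpat2 on the other strand, had a log2 fold change of 0.69. The genes of the VEGF receptor Kdr (0.25, SE 0.17) and of von Willebrand factor Vwf (1.02, SE 0.37) did not pass the test. Of 12 adipocyte genes 2 were higher and 1 was lower, with a median of -0.09 and overlapping sums of 44000 to 62500 and 33400 to 60200 CPM (0 to 2 higher over 15 other settings, with none without control replicate 2 or 3 or cachexia replicate 1 and 1 without any 1 of the other mice, and 0 to 3 lower, with none when any 1 of the controls was left out). The lipolysis gene Pnpla2 and the lipid droplet gene Cidec had 1.08 and 0.87 and the leptin gene Lep -3.14, and Car3 (-1.28, SE 0.52) and the adipsin gene Cfd (0.37, SE 0.32) did not pass the test.

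Of 9 dendritic cell genes none was higher and 2 were lower, with a median of -0.82 and overlapping sums of 59.5 to 66.1 and 50.5 to 82.5 CPM. The lower genes were the chemokine receptor gene Xcr1 (-3.41) and the transcription factor gene Batf3 (-1.35). Xcr1 had only 50, 33 and 29 counts in the controls and 4, 5 and 0 in the cachectic mice. Over 15 other settings 0 to 3 dendritic cell genes were called lower, with none without control replicate 2 or 3. The number was 1 without control replicate 1 or cachexia replicate 2 or 3. Zbtb46 alone was higher at an unadjusted p under 0.05 in edgeR (0.56, SE 0.19). DESeq2 and limma-voom called none higher, and edgeR called 1 with library totals and 1 without cachexia replicate 2. Cd209a had -0.82 (SE 0.58). Of the neutrophil, erythroid and blood endothelial genes none was lower at an unadjusted p under 0.05 in edgeR or was called lower by DESeq2 or limma-voom. The part of these cells in the levels of Cd163, Mertk, Mrc1 and Folr2 was not tested.

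**Figure D5:**
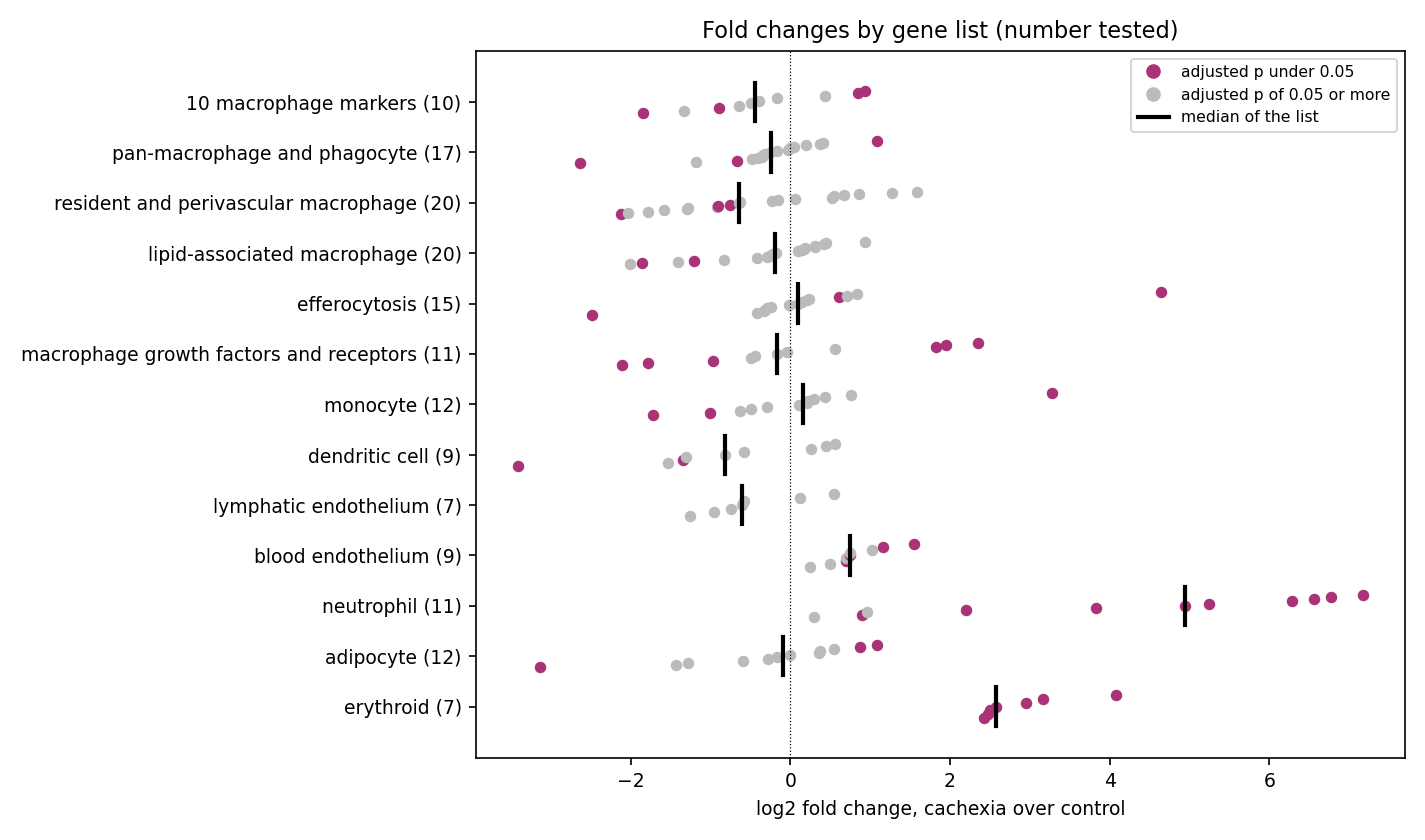
Log2 fold change of cachectic over control mice (horizontal axis, edgeR, 3 mice per group) for each tested gene of the 10 markers and of 12 other lists, with the number of tested genes in parentheses, purple points for an adjusted p under 0.05 and a bar at the median of the list. The medians are -0.45 for the 10 markers, -0.64 for resident and -0.20 for lipid-associated macrophage genes, 4.95 for neutrophil and 2.57 for erythroid genes, and 0 over all tested genes.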

How the data were processed

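Total RNA of eWAT from 3 control and 3 cachectic mice was sequenced as paired-end reads. After quality filtering the authors used Hisat2 for alignment and counted reads per gene (featureCounts 1.5.0-p3 in the submitters' processing notes), and the deposited raw counts per gene and mouse are not normalized. The authors also deposited FPKM values, made from counts and gene lengths, which carry a further factor of 0.932 to 1.06 per sample. The deposited table of 3624 differentially expressed genes holds fold changes and p-values from the authors' own test, and neither these nor its 6 per-sample and 2 group mean columns were used. The processing notes name mm9, but 99.8% of the identifiers are in GENCODE M21 (GRCm38) and 98.3% of the genes have the coordinates given there. Coordinates are those of the deposited files. Strand use in counting is not given in the sources used here.

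Samples were grouped by their titles. For the counts, edgeR 4.0.16 (in R 4.3.3) was run with TMM scaling, the filterByExpr filter and a quasi-likelihood test without covariates, and p-values were adjusted over 16003 genes by Benjamini-Hochberg (BH) with a threshold of 0.05. The SE given is the log2 fold change divided by the square root of F. Depth, 14928766 to 18855546 counts per mouse, and the spread between mice set the precision. The labels do not say that samples of a group came from separate cages or litters. No pair of libraries was identical or within counting noise (chi-square per degree of freedom at least 12.6), so each counted once. The value of 12.6 was that of control replicates 2 and 3. Control replicate 1 had 61.5 and 49 with them, and pairs of cachectic mice had 62.2 to 80.8. Exact permutation tests used log2(CPM + 0.5). The script was tested on simulated counts.

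The 10 markers and the 12 other lists were chosen with earlier results of these data known. Of each other list, up to 4 called genes with the smallest p and up to 2 uncalled genes with the highest CPM were named by rule. Genes named outside it are the C1q genes, used as a reference, and Csf1, Prox1, Reln, Pdpn, Ccl21a, Nts and Ly6g, named after their values were seen. Other settings were RLE factors, library totals, no filter, at least 10 counts in every sample, a replicate block, 3 other tests (DESeq2 1.42.0, voom in limma 3.58.1 and a newer quasi-likelihood form), log2 FPKM in limma (pseudocounts of 1 and 0.1), a restriction to protein-coding genes, and each mouse left out. A length of the longest coding transcript was added after the data were seen.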

Additional observations from a re-analysis of the deposited data

How the results depend on the processing

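Mrc1, Folr2, Cd163 and Mertk kept their direction in all 17 other settings, and their adjusted p was under 0.05 in 12, 15, 12 and 13 of them. Each setting that lost a call of these genes left out 1 mouse or added the replicate block. The calls among the 10 markers ranged from 0 to 2 higher and from 0 to 3 lower over the 6 fits that left out 1 mouse, in which fewer mice were fitted. No marker was called higher when any 1 of the controls was left out, and none lower without control replicate 2 or 3. Over all genes these fits called 828 (without control replicate 3) to 2339, with 382 to 1197 higher and 446 to 1142 lower. The fit without control replicate 2 called 1312 and that without control replicate 1 called 2187. Of the 828 genes, 817 were among the 2821. With each mouse left out the log2 fold change of Lyve1 ranged from -0.35 to 0.24 (without control replicate 2) and that of Gpnmb from -0.08 (without cachexia replicate 2) to 1.15, none past the threshold. The deviations of same-numbered mice from their group means had correlations of -0.00314, -0.0113 and 0.00849. With 3 mice per group this cannot settle whether same-numbered mice shared a cage, litter or batch, which the labels do not state. A replicate block left 1 marker called higher (Cd163) and 1 lower (Folr2), since the BH-adjusted p in edgeR was 0.0588 for Mrc1 and 0.0616 for Mertk, with 913 genes called higher among 1881 over all genes, 1790 of them shared with the fit without the block. The other scalings, filters and tools kept both higher and both lower markers, and DESeq2 added Timd4. Scaling by library totals moved the median of all genes by 0.05 on the log2 scale. Depth limits Timd4 and Folr2 most, with 23 and 24 counts in cachexia replicate 3. With 3 mice per group no single value can pass 0.05 in an exact test.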
